A study of Homo sapiens with 4 samples.

Results

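The 8 troponin genes TNNT1, TNNT2, TNNT3, TNNI1, TNNI2, TNNI3, TNNC1 and TNNC2 were taken from the 60234 genes of the deposited count table by matching Ensembl identifiers to these symbols, and all 8 had a row. The troponin complex sits on the thin filament of striated muscle. Troponin T anchors the complex to tropomyosin, troponin I inhibits the interaction of actin and myosin, and troponin C binds calcium and relieves this inhibition. Each subunit has isoforms encoded by separate genes. TNNT2 and TNNI3 encode the cardiac forms of troponin T and I, TNNT1 and TNNI1 the slow skeletal forms, and TNNT3 and TNNI2 the fast skeletal forms, while TNNC1 encodes the troponin C of heart and slow muscle and TNNC2 that of fast muscle. The fetal heart uses slow skeletal troponin I and exchanges it for cardiac troponin I around and after birth, so the proportion of TNNI1 to TNNI3 is used as a measure of cardiomyocyte maturity.

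RNA was sequenced from cardiac differentiations of NKX2.5:GFP hESCs, an established human embryonic stem cell line in which 1 NKX2-5 allele carries GFP, made as spin embryoid bodies. Cultures received 1 µM retinoic acid (RA) from day 4 to day 7, or the solvent DMSO over the same days (control, CTR), and were sorted by GFP at day 31 according to the design text of the series. This gave 4 groups, RA GFP-positive, CTR GFP-positive, RA GFP-negative and CTR GFP-negative, with 1 library each. The comparisons ask what RA is accompanied by within each sorted fraction, and how the GFP-positive fraction differs from the GFP-negative fraction within each treatment.

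The libraries held 28125727, 28643091, 26222787 and 4371101 counted reads in the order above, so that 3 reads corresponded to between 0.105 and 0.639 CPM (counts scaled to a common library total with TMM factors). Since no group has a second library, no test between groups was made, and the 95% intervals given here cover counting error only and not the variation between cultures. GFP reports NKX2-5 transcription, and the sort does not separate every cardiomyocyte from every other cell. All 12 cardiomyocyte markers were at least 2-fold higher in the GFP-positive library under both treatments, with a median log2 difference of 4.26 in CTR and 4.53 in RA. Of all genes with at least 10 CPM, 11.9% in CTR and 9.97% with RA were higher by as much. The list includes NKX2-5, the gene that GFP reports, whose own difference is set by the sort. Fewer cells of a type and less RNA per cell cannot be told apart in any of these libraries.

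The genes lie in 3 linked pairs of a troponin I and a troponin T gene, with the troponin C genes elsewhere (GRCh37 coordinates). TNNT2 (ENSG00000118194, chr1:201328136-201346892, minus strand) and TNNI1 (ENSG00000159173, chr1:201372912-201398994, minus strand) are 26019 bases apart, with LAD1 between them. TNNT1 (ENSG00000105048, chr19:55644066-55660574, minus strand) and TNNI3 (ENSG00000129991, chr19:55663135-55669141, minus strand) are 2560 bases apart with no protein-coding gene between them. TNNI2 (ENSG00000130598, chr11:1860211-1862910, plus strand) and TNNT3 (ENSG00000130595, chr11:1940933-1959936, plus strand) are 78022 bases apart and enclose LSP1 and PRR33. TNNC1 (ENSG00000114854) is at chr3:52485116-52488057 and TNNC2 (ENSG00000101470) at chr20:44451853-44462384, both on the minus strand.

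The promoters of TNNT2, TNNT1 and TNNI3 are shown because their entries were available. Between the sorted fractions TNNT2 and TNNT1 went in opposite directions, and TNNT1 and TNNI3 did so although they are neighbours. Each line gives the 250 bases before the RefSeq start, 5′ to 3′ on the gene's own minus strand, from GRCh38.p14, and capitals mark matches of the GATA or MCAT motif. RefSeq entries were at hand for these 3 of the 8 genes.
TNNT2, chr1:201377681-201377930: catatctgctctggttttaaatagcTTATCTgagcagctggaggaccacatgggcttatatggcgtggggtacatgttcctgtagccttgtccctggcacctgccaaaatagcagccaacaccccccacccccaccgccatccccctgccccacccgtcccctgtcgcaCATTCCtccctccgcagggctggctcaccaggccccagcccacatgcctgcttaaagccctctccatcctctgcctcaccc
TNNT1, chr19:55149207-55149456: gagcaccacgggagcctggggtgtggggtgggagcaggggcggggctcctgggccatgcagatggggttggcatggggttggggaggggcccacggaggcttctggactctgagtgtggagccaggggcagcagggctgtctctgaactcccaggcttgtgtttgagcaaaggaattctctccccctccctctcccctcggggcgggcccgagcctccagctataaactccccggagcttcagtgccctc
TNNI3, chr19:55157733-55157982: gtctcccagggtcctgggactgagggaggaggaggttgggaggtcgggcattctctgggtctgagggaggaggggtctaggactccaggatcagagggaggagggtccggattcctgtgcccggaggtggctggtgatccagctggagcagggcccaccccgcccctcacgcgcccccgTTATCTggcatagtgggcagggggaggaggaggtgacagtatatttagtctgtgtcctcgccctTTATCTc

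Both strands were searched for 5 motifs. MCAT was spelled CATTCC. The GATA motif had 4 spellings, which were AGATAA, followed by AGATAG, followed by TGATAA, followed by TGATAG. The NKX2-5 motif was spelled TNAAGTG, while MEF2 and CArG were searched by their usual consensus. No match overlapped another. TNNT2 had MCAT 81 to 76 bases before the start and a GATA match, on the opposite strand, 225 to 220 bases before it. TNNI3 had GATA matches on the opposite strand 71 to 66 and 7 to 2 bases before its start, and the TNNT1 window held none of the motifs. Of 35116 promoters of the same length, 11.9% held MCAT, 22.3% GATA, 8.73% the NKX2-5 motif, 2.8% MEF2 and 1.16% CArG. These matches describe the letters of the windows only.

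TNNT2, cardiac troponin T, had the most reads of the troponin genes in every library, with 4371 CPM in RA GFP-positive cells, 4776 in CTR GFP-positive cells, 126 in RA GFP-negative cells and 230 in CTR GFP-negative cells. By CPM it ranked 16th and 14th of all genes in the GFP-positive libraries and 1396th and 548th in the GFP-negative ones. TNNI1, slow skeletal and fetal cardiac troponin I, was at 1201 and 1884 CPM in the RA and CTR GFP-positive libraries and 57.8 and 90.5 CPM in the GFP-negative libraries. For both genes the order of the 4 libraries was CTR GFP-positive, RA GFP-positive, CTR GFP-negative, RA GFP-negative, and no neighbouring intervals overlapped. TNNC1, the cardiac and slow troponin C, kept this order with 244, 228, 54.1 and 20.8 CPM. TNNI3, cardiac troponin I, was 27.6 CPM in RA GFP-positive, 25.8 in CTR GFP-positive, 13.1 in RA GFP-negative and 12.4 in CTR GFP-negative cells. The intervals of the 2 TNNI3 values overlapped within each fraction (25.6 to 29.7 against 24 to 27.8 CPM, and 11.7 to 14.6 against 9.38 to 16 CPM), and they did not overlap between the fractions.

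The skeletal isoforms had other orders. TNNT1, slow skeletal troponin T, was highest in CTR GFP-negative cells at 124 CPM, followed by RA GFP-negative cells at 52.8, and it was 8.17 and 7.18 CPM in CTR and RA GFP-positive cells, whose intervals overlapped. TNNT3, fast skeletal troponin T, was 18 CPM in RA GFP-negative and 16.5 CPM in CTR GFP-positive cells, which overlapped, and 7.88 and 5.46 CPM in CTR GFP-negative and RA GFP-positive cells, which also overlapped. TNNI2 and TNNC2 were rare. TNNI2 was between 0.449 and 1.13 CPM on 5 to 29 reads per library, and all 4 intervals overlapped their neighbours. TNNC2 had 102 reads in CTR GFP-positive cells (3.56 CPM), 30 in RA GFP-positive cells (1.12 CPM), 18 in RA GFP-negative cells (0.701 CPM) and none in CTR GFP-negative cells, where 3 reads would be 0.639 CPM and the exact Poisson interval reaches 0.786 CPM.

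**Figure D1:**
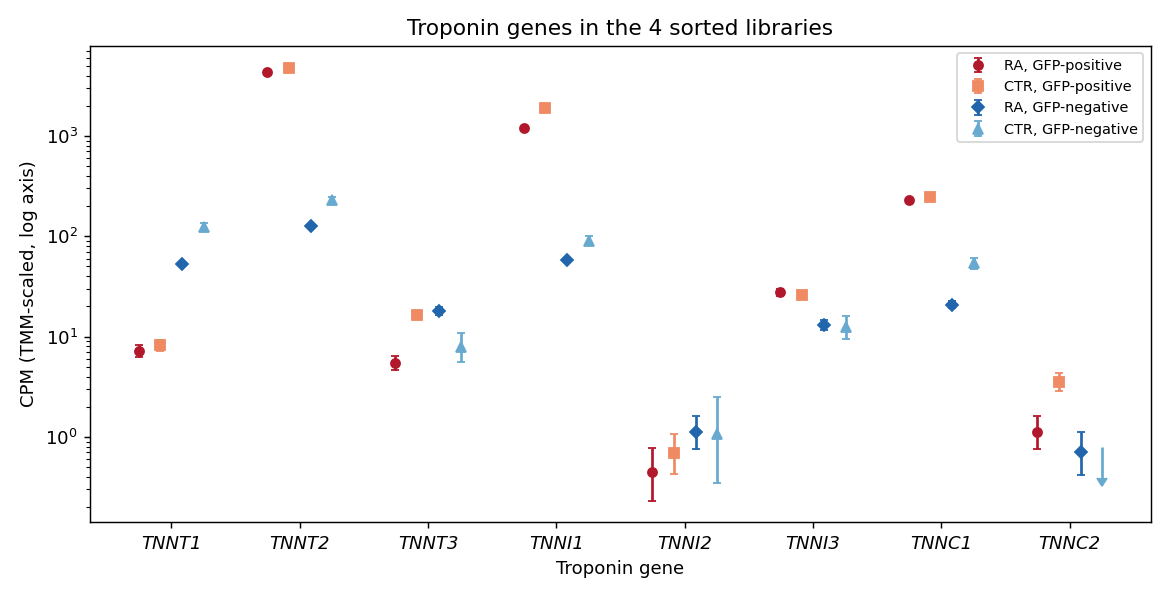
Level of each troponin gene in each of the 4 libraries, in TMM-scaled CPM on a log axis, with exact Poisson 95% counting intervals (1 library per group; the arrow marks 0 reads). TNNT2, TNNI1 and TNNC1 are higher in both GFP-positive libraries, TNNT1 is higher in both GFP-negative libraries, and TNNT3 shows neither order.

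Per kilobase of exon (union of all annotated exons), the order of the genes in the CTR GFP-positive library was TNNT2 at 652 CPM per kb, TNNI1 at 252, TNNC1 at 214, TNNI3 at 12.7, TNNT3 at 6.08, TNNC2 at 4.2, TNNT1 at 3.85 and TNNI2 at 0.641, of which TNNC2 (3.43 to 5.1) and TNNT1 (3.38 to 4.38) had overlapping intervals. In RA GFP-positive cells TNNC1 (200 CPM per kb) stood above TNNI1 (160). In CTR GFP-negative cells TNNT1 led with 58.6 CPM per kb, ahead of TNNC1 (47.4), TNNT2 (31.4) and TNNI1 (12.1). In RA GFP-negative cells TNNT1 (24.9) was again highest, and TNNC1 (18.2) and TNNT2 (17.2) had overlapping intervals. These orders depend on the length used, since TNNT2 has 7330 bases in the union of its exons but 1165 in its MANE Select transcript. With the MANE Select transcript, TNNT2 stood above TNNT1 in the GFP-negative libraries, at 198 against 112 CPM per kb in CTR and 108 against 47.5 in RA. With the same transcripts TNNC1 stood above TNNI1 in both GFP-positive libraries, at 355 against 308 CPM per kb in CTR and 332 against 197 in RA.

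As shares of reads, which are not corrected for gene length, TNNT2 took 99.7% of troponin T in RA and 99.5% in CTR GFP-positive cells. In GFP-negative cells its share was 64.1% (95% exact binomial interval, 62.8 to 65.4) with RA and 63.6% (61.2 to 65.9) in CTR. TNNT1 made up 26.8% (25.6 to 28) of troponin T reads in RA GFP-negative cells and 34.3% (32 to 36.6) in CTR GFP-negative cells, while TNNT3 made up 9.11% (8.33 to 9.94) and 2.17% (1.54 to 2.98). Thus the TNNT2 share was alike in the GFP-negative libraries within counting error, and the remainder was divided differently between the slow and the fast skeletal form. Per kilobase, the TNNT2 share of troponin T in RA and CTR GFP-negative cells was 35.4% and 33.8% with the union of exons and 62.7% and 62.4% with the MANE Select transcripts. Within troponin C, TNNC1 took 99.5%, 98.6%, 96.7% and 100% of reads in RA GFP-positive, CTR GFP-positive, RA GFP-negative and CTR GFP-negative cells. TNNC2 had 0 of 254 troponin C reads in CTR GFP-negative cells, with an upper interval bound of 1.44%.

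The first comparison was that of RA with CTR in GFP-positive cells. TNNT3 was 3.02-fold lower with RA (interval 2.51 to 3.67, 146 against 473 reads), a log2 difference of -1.44. TNNI1 was 0.638 of its CTR level (0.629 to 0.647), and TNNT2 was 0.915 (0.908 to 0.922) and TNNC1 0.935 (0.903 to 0.968) of theirs. For TNNI3 the ratio was 1.07 (0.964 to 1.18) and for TNNT1 0.879 (0.723 to 1.07), and both intervals include 1. TNNC2 was 3.17-fold lower (2.09 to 4.94) on 30 against 102 reads, but did not reach 10 CPM in either library.

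A difference was counted when log2(CPM + 1) differed by at least 1, that is 2-fold, among the genes that reached 10 CPM in 1 or both of the libraries compared. Of the 5 troponin genes that reached 10 CPM in the GFP-positive comparison, none was higher and 1, TNNT3, was lower with RA. Over all 11186 genes compared, 4.14% were higher and 1.67% lower. The 11 other genes of the thin filament (actins, tropomyosins, leiomodins, tropomodulin and the nebulin family) had a median log2 difference of 0.00 over the 9 with at least 10 CPM, beside 0.02 over all genes. Of these, ACTA1 and TPM4 were higher, none was lower. ACTA1, skeletal alpha actin, was 235 CPM with RA and 21.7 CPM in CTR, and TPM4, a tropomyosin of many non-muscle cells, was 326 against 143 CPM. The actin genes are near-identical over much of their coding sequence, and as only unique alignments were counted their levels are uncertain. ACTC1, cardiac alpha actin, was 7538 against 4839 CPM, a ratio of 1.56 (1.55 to 1.57), while the troponin genes TNNT2, TNNI1 and TNNC1 were on the other side of 1.

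Other cell types moved with this comparison. The summed level of 8 smooth muscle and fibroblast markers was 13932 CPM in RA and 3818 CPM in CTR GFP-positive cells, and 7 of the 8 were at least 2-fold higher with RA. The 4 endoderm markers summed to 86.4 CPM with RA and 31 CPM in CTR, with AFP (22.6 against 0.279 CPM) and EPCAM (34.3 against 15.9 CPM) past 2-fold. The 5 neural markers summed to 53.2 against 10.7 CPM, most of it STMN2 with RA (42.5 against 1.26 CPM). The summed level of the 12 cardiomyocyte markers, none of which was at 0, was 14026 against 17225 CPM, with a median log2 difference of -0.39 and 1 marker, MYH7, past 2-fold. Thus the ratios of TNNT2 and TNNC1 were nearer to 1, and that of TNNI1 farther from 1, than the median cardiomyocyte marker. The part of the cell composition in these differences was not tested.

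In GFP-negative cells, TNNT1, TNNC1, TNNT2 and TNNI1 were all lower with RA. TNNT1 was 2.35-fold lower (2.13 to 2.59, log2 difference -1.22) and TNNC1 2.6-fold lower (2.23 to 3.02, log2 difference -1.34). TNNT2 was 1.82-fold lower (1.7 to 1.95) and TNNI1 1.57-fold lower (1.4 to 1.75). TNNT3 was 2.28-fold higher (1.63 to 3.28, log2 difference 1.09), on 461 reads against 37. For TNNI3 the ratio was 1.06 (0.8 to 1.43). TNNC2 had 18 reads against 0. It would be 1.1-fold higher with the CTR library set at 3 reads, but the interval of its ratio begins at 0.805 and includes 1. TNNI2 had a ratio of 1.06 (0.406 to 3.51).

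Of the 6 troponin genes with at least 10 CPM in this comparison, 1 (TNNT3) was higher and 2 (TNNT1 and TNNC1) were lower by at least 2-fold, beside 4.95% higher and 3.18% lower of 11606 genes. Scaling affected this background, as 60.9% of the genes past 2-fold were higher with TMM but 46.7% with library size alone and 47% when mitochondrial and the 10 most abundant genes were left out. TNNT3 was under 2-fold with both of these scalings, with a pseudocount of 5 CPM and after thinning all libraries to the smallest, with a lowest log2 difference of 0.83. The 11 other thin filament genes had a median of -0.20 over 9 genes, beside 0.08 over all genes, with NEB and TMOD1 lower and none higher. The 12 cardiomyocyte markers had a median of -1.0 over the 11 with at least 10 CPM, and 5 of them (ACTN2, MYBPC3, MYH7, RYR2 and TTN) were lower. Their summed level was 418 CPM with RA and 783 CPM in CTR, and none was at 0. The endoderm markers AFP, APOA1, EPCAM and CDH1 summed to 869 CPM with RA and 148 CPM in CTR, and the smooth muscle and fibroblast markers to 49515 and 26127 CPM. The 5 neural markers summed to 98.2 and 164 CPM but went both ways, as STMN2 was higher with RA (72.7 against 16.8 CPM) and PAX6 (8.5 against 96.3 CPM), SOX2 and DCX were lower, each by at least 2-fold. The part of these other cells in the troponin differences was not tested.

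**Figure D2:**
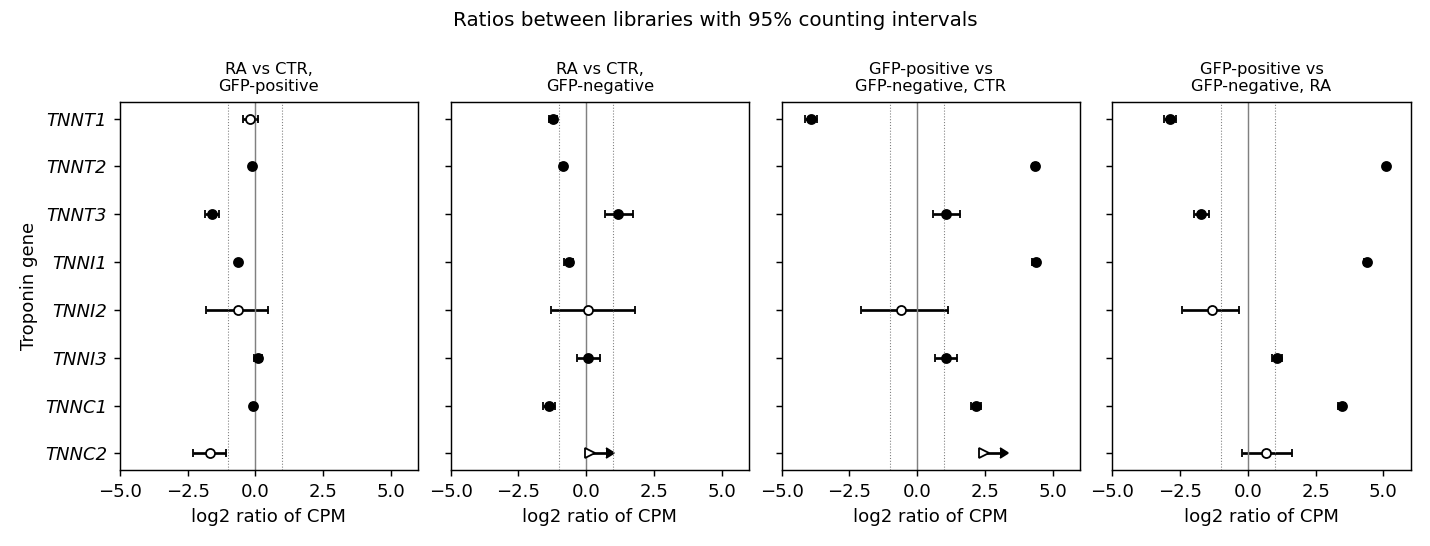
Log2 ratios of CPM between libraries for the 8 troponin genes in the 4 comparisons, with 95% counting intervals. Filled points reached 10 CPM in either library and open points did not, and dotted lines mark 2-fold. Arrows mark TNNC2 with its 0 reads in CTR GFP-negative cells set at 3 reads, and are not interval bounds. TNNT3 lies left of 0 in RA against CTR GFP-positive cells and right of 0 in GFP-negative cells.

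The RA ratio was set against itself in the sorted fractions as a ratio of ratios. For TNNI1 it was 1 (0.897 to 1.11) and for TNNI3 1.01 (0.749 to 1.36), so the RA ratios of TNNI1 and of TNNI3 did not differ between the fractions beyond counting error. For TNNI2, on few reads, it was 0.606 (0.185 to 1.99). For TNNT2 it was 1.67 (1.56 to 1.79), for TNNT1 2.07 (1.67 to 2.56) and for TNNC1 2.43 (2.09 to 2.83), the RA library being nearer to its CTR library when GFP-positive than when GFP-negative. For TNNT3 it was 0.145 (0.0989 to 0.213). Each library enters a comparison of treatments and a comparison of fractions, so these comparisons are not independent of each other.

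The proportion of TNNI1 to TNNI3, both divided by the union of their exons, was 11.8 (11 to 12.7) in RA GFP-positive cells and 19.8 (18.4 to 21.3) in CTR GFP-positive cells. In GFP-negative cells it was 1.2 (1.06 to 1.35) with RA and 1.99 (1.51 to 2.67) in CTR. On this scale TNNI1 was above TNNI3 in all 4 libraries, but in GFP-negative cells the order turned with the length (below). The 12 cardiomyocyte markers summed to 418 and 783 CPM in RA and CTR GFP-negative cells, against 14026 and 17225 CPM in GFP-positive cells. Whether the GFP-negative proportions reflect cardiomyocytes was not tested. The proportion with RA was 0.597 (0.538 to 0.662) of that in CTR in GFP-positive cells and 0.602 (0.446 to 0.812) in GFP-negative cells. Neither the scaling nor the gene length enters these last values. The reads behind them were 32129 and 53977 for TNNI1 and 738 and 740 for TNNI3 in the RA and CTR GFP-positive libraries, so that the lower proportion went with fewer TNNI1 reads and not with more TNNI3 reads. In GFP-negative cells TNNI1 likewise differed (57.8 and 90.5 CPM) where TNNI3 did so within counting error (13.1 and 12.4 CPM).

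The proportion itself depends on how TNNI3 was counted. The readthrough gene ENSG00000267110 on the same strand shares 496 of the 2034 exon bases of TNNI3, and 479 of the 843 bases (56.8%) of its MANE Select transcript. These shared bases are those of the GENCODE annotation used here, and as the Ensembl release behind the counts is not given in the sources used here, the bases lost to TNNI3 in the counting may differ. ENSG00000267110 had 0 reads in all 4 libraries. In the counting mode used, a read that lies wholly on bases of both genes is given to neither, so that TNNI3 counts come mainly from the remaining bases. With the lengths of the MANE Select transcripts the proportions were 6.01, 10.1, 0.609 and 1.01 in RA GFP-positive, CTR GFP-positive, RA GFP-negative and CTR GFP-negative cells. With the shared bases of this annotation also removed they were 2.59, 4.35, 0.263 and 0.437. TNNI1 therefore remained above TNNI3 in both GFP-positive libraries under each length tried, whereas in GFP-negative cells the order of the isoforms turned with the length.

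**Figure D3:**
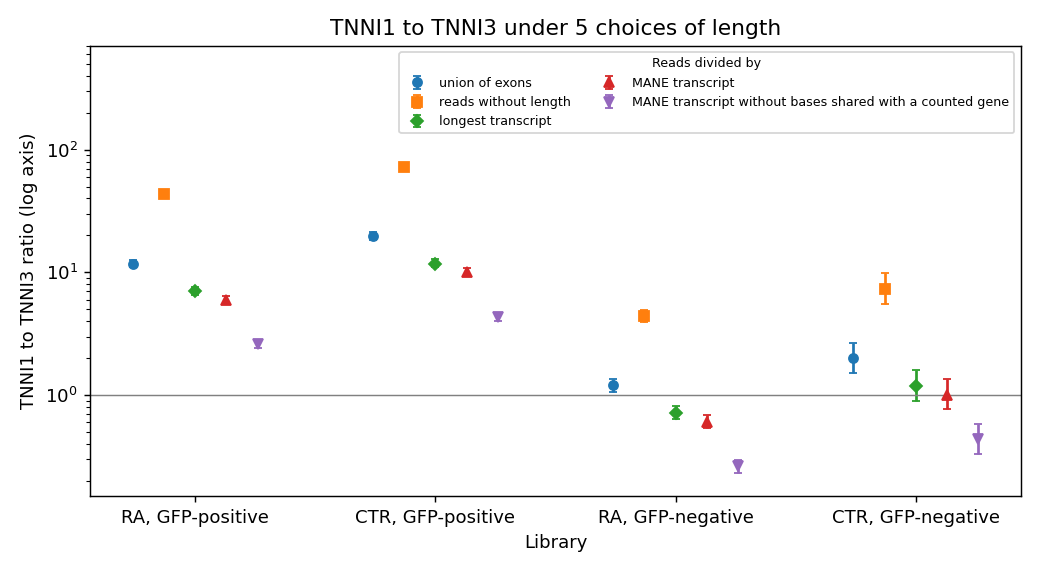
TNNI1 to TNNI3 ratio in each library (log axis) with reads divided by 5 choices of gene length, and 95% counting intervals. Both GFP-positive libraries lie above 1 with every length, RA is below CTR in each fraction by the same factor for every length, and the GFP-negative libraries fall on both sides of 1.

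The fractions were then compared within each treatment. In CTR, TNNT2 was 20.7-fold (19.5 to 22) and TNNI1 20.8-fold (18.9 to 22.9) above its GFP-negative level in the GFP-positive library, TNNC1 4.51-fold (3.97 to 5.13), TNNI3 2.09-fold (1.6 to 2.78) and TNNT3 2.09-fold (1.5 to 3.01). TNNT1 was 15.2-fold lower (13 to 17.8). TNNC2 was higher, with 102 reads against 0. It would be 5.57-fold higher with the GFP-negative library set at 3 reads, and the interval of its ratio begins at 4.45. Of the 6 genes with at least 10 CPM, 4 were past 2-fold in the higher direction and 1 in the lower, where 11.9% of 11806 genes were higher and 13.3% lower. TNNI3 (log2 difference 1.01) and TNNT3 (0.98) lay just inside and just outside this limit, and TNNI3 was outside it with library size alone, DESeq2 size factors, the scaling without mitochondrial and abundant genes and a pseudocount of 5 CPM. TNNT3 was inside it with upper quartile factors, pairwise TMM factors, a pseudocount of 0.25 CPM and thinned libraries.

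With RA, TNNT2 was 34.6-fold (33.4 to 35.8), TNNI1 20.8-fold (19.7 to 21.9), TNNC1 11-fold (10 to 12) and TNNI3 2.11-fold (1.85 to 2.4) higher in GFP-positive cells. TNNT1 was 7.36-fold (6.32 to 8.6) and TNNT3 3.29-fold (2.73 to 3.99) lower. Of the 6 genes with at least 10 CPM, 4 were higher and 2 lower, where 9.97% of 11850 genes were higher and 12.4% lower. TNNI3 had a log2 difference of 1.02 and fell under the limit with library size alone and with a pseudocount of 5 CPM. The other thin filament genes divided in both treatments. ACTC1, LMOD2, NEBL and TMOD1 were higher in GFP-positive cells of both, and TPM3 and TPM4 lower in both, with a median of 0.69 over 10 genes in CTR and 3.82 over 9 genes with RA, beside 0.08 and 0.02 over all genes. ACTA1 was past 2-fold with RA (235 against 15.7 CPM) and 1.85-fold (1.4 to 2.48) higher in CTR (21.7 against 11.7 CPM). NEB was past 2-fold lower in CTR (3.77 against 10.4 CPM), and with RA it was under 10 CPM in both fractions (3.33 and 2.81 CPM).

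Markers of other cell types went with the fractions as well. In CTR, 6 of 8 smooth muscle and fibroblast markers were at least 2-fold lower and 1 higher in GFP-positive cells (median log2 difference -2.63), and the 4 neural markers with at least 10 CPM and 1 of 2 such endoderm markers were lower. With RA, 5 of the 8 smooth muscle and fibroblast markers were lower and 2 higher (median -1.69), and all 4 endoderm markers and 1 of 2 neural markers with at least 10 CPM were lower. The part of these cells in the TNNT1 and TNNT3 differences was not tested.

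The GFP-negative level as a percentage of the GFP-positive level separates the troponin genes into groups. For the 12 cardiomyocyte markers, with the sorted gene NKX2-5 among them, it ran from 1.51% (MYBPC3) to 13.9% (RYR2) in CTR, with a median of 5.07%. With RA it ran from 0.715% (MYBPC3) to 11.4% (SLC8A1), with a median of 3.78%. TNNT2 (4.82% in CTR, 2.89% with RA) and TNNI1 (4.8% and 4.81%) lay within these ranges in both treatments. TNNC1 was above the range in CTR (22.2%) and within it with RA (9.13%). TNNI3 was above it in both, at 47.8% and 47.4%. TNNT1 reached 1520% and 736%, and TNNT3 47.7% and 329%. The counts per gene do not show which cells of the GFP-negative fraction contributed these reads.

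**Figure D4:**
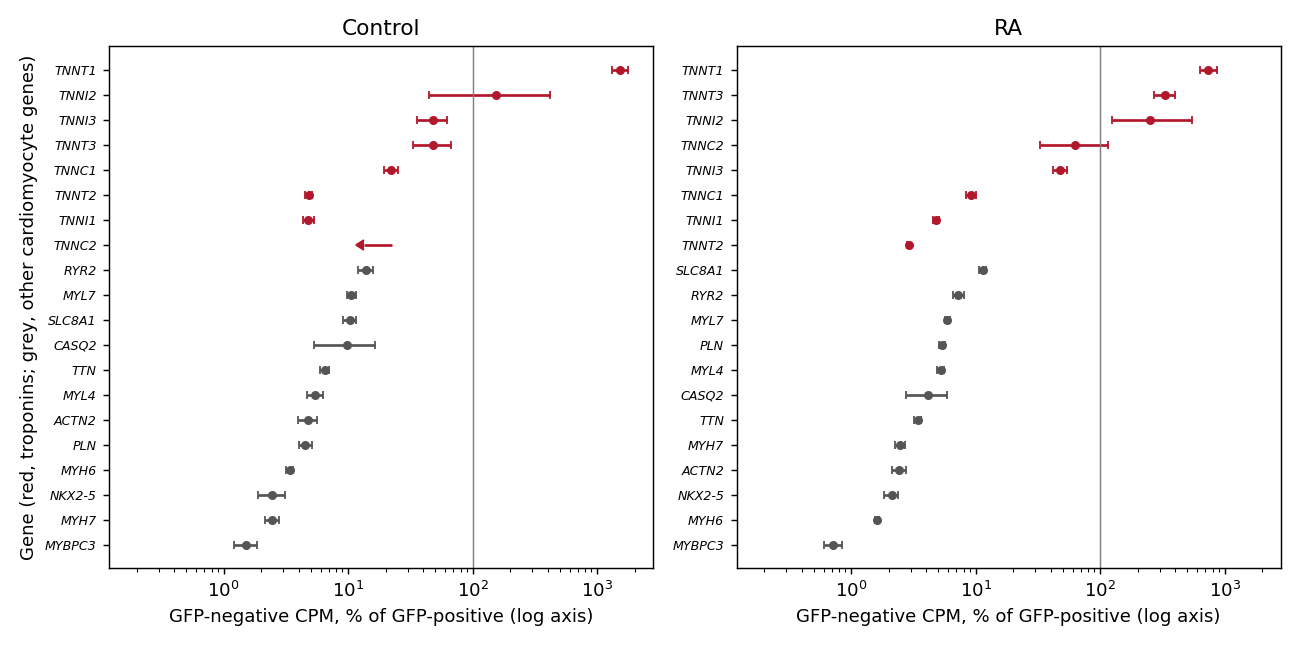
CPM in the GFP-negative library as a percentage of CPM in the GFP-positive library of the same treatment (log axis, left CTR, right RA), with 95% counting intervals, for the troponin genes (red) and 12 other cardiomyocyte genes (grey). TNNT2 and TNNI1 lie among the grey points, and TNNI3 and TNNT1 lie above them in both panels.

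Markers of skeletal muscle were compared because TNNT1, TNNT3, TNNI2 and TNNC2 belong to that tissue. Of the 15 genes of the list in the table, 2, 4, 0 and 4 had no reads in RA GFP-positive, CTR GFP-positive, RA GFP-negative and CTR GFP-negative cells. The genes summed to 252 and 495 CPM in RA and CTR GFP-positive cells and to 31 and 57.9 CPM in RA and CTR GFP-negative cells. Of the defining regulators, MYOD1 was at 0.337, 0, 0.585 and 1.28 CPM in this order, and MYF5 had no reads in any library but RA GFP-negative cells, where it was at 0.117 CPM. MYOG, a further regulator, was 11.5 and 5.3 CPM in the RA and CTR GFP-positive libraries and 0.312 and 2.56 CPM in the RA and CTR GFP-negative ones. CKM, muscle creatine kinase, which heart also expresses, was 158 and 338 CPM in RA and CTR GFP-positive cells and made up most of their sum. MYH3 went the other way, with 3.1 and 5.93 CPM in RA and CTR GFP-positive and 6.24 and 9.58 CPM in RA and CTR GFP-negative cells. MYH8 and MYF6 were also higher in the GFP-negative libraries, at no more than 1.28 CPM. ACTN3, a fast-fibre actinin, was 29.1 with RA and 91.7 CPM in CTR GFP-positive cells, and among GFP-negative cells it was 7.21 with RA and 16.8 CPM in CTR. Of the 5 skeletal muscle genes with at least 10 CPM in the comparison of RA with CTR GFP-positive cells, ACTN3 and CKM were past 2-fold lower and 3 were past it in neither direction, with a median log2 difference of -0.14. Those 3 were CASQ1 (ratio 1.03, 0.918 to 1.15), MYBPC2 (0.905, 0.805 to 1.02) and MYOG (2.16, 1.78 to 2.65, log2 difference 0.99). In GFP-negative cells 3 skeletal muscle genes reached 10 CPM, with a median log2 difference of -0.81. ACTN3 was lower with RA, by a ratio of 0.429 (0.328 to 0.565), and 2 were past 2-fold in neither direction, where TNNT3 had a ratio of 2.28. Between the fractions, 3 of 5 such genes were past 2-fold higher in GFP-positive cells in CTR, and 5 of 5 with RA. The part of skeletal muscle cells in the troponin values was not tested.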

How the data were processed

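Total RNA of the 4 sorted populations was sequenced by the authors as paired reads of 75 bases from strand-specific libraries, trimmed with SICKLE and aligned with GSNAP to a custom hg19 genome, with settings that kept only reads placed at 1 location. SAMtools 0.1.18 served to sort the alignments. HTSeq 0.6.1p1 then assigned them to Ensembl genes without strand in intersection-nonempty mode (tools from the submitters' processing notes and the study's methods). The deposited values are these raw counts, with no normalization, while the Ensembl release is not given in the sources used here. Any read lying wholly on bases shared by 2 counted genes is lost, and without strand this includes genes on opposite strands.

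CPM were computed with TMM scaling over all 4 libraries (factors 0.951, 0.979, 1 and 1.07 for RA GFP-positive, RA GFP-negative, CTR GFP-positive and CTR GFP-negative) from edgeR 4.0.16 in R 4.3.3. Differences were taken on log2(CPM + 1), so that differences of low genes are understated. The 95% intervals are Clopper-Pearson for ratios, exact Poisson for CPM and exact binomial for shares. Those of ratios of ratios, including the change of the TNNI1 to TNNI3 proportion with RA, are normal approximations on the log scale. All these intervals cover counting error only, as does the floor of 3 reads, since reads were amplified without molecular identifiers. The named genes were the 8 troponin genes, 11 other thin filament genes, the protein-coding genes between linked troponin genes, the 5 genes nearest in pattern to each troponin gene with at least 10 CPM, and marker lists of 5 cell types. These members and lists were chosen with earlier results of these data known. MYLPF was not analysed here. 1 gene named by this rule is not reported here. Coordinates and exon lengths are from GENCODE lifted to GRCh37, the primary chromosomes of hg19, and promoters from RefSeq on GRCh38.p14. Alternatives were other scalings (library size alone, DESeq2 1.42.0 size factors, upper quartile, pairwise TMM, library size leaving out the 10 most abundant and all mitochondrial genes), pseudocounts of 0.25 and 5 CPM, other filters, other gene lengths, and thinning to 4371101 reads. The procedure was tested on simulated data. Python 3.11.15, scipy 1.17.1 and matplotlib 3.10.9 were used.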

Additional observations from a re-analysis of the deposited data

Results flagged for a closer look

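TNNT3 differed with RA in opposite directions in the sorted fractions, with a log2 difference of -1.44 among GFP-positive and 1.09 among GFP-negative cells. For the same gene the difference between GFP-positive and GFP-negative cells was 0.98 in CTR and -1.55 with RA. TNNI2 had an RA difference of -0.23 among GFP-positive and 0.04 among GFP-negative cells, and TNNC2 of -1.10 and 0.77, both on at most 102 reads per library. With 1 library per group this contrast of fractions was not tested for any of these 3 genes.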

How the results depend on the processing

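Of the 32 differences (8 genes in 4 comparisons), 27 kept their direction under all 8 alternatives of scaling, pseudocount and thinning. The other 5 were small or rested on few reads: TNNT1 with RA in GFP-positive cells (-0.23 to 0.10), TNNI2 with RA in GFP-positive (-0.44 to 0.49) and GFP-negative cells (-0.03 to 0.35), TNNI3 with RA in GFP-negative cells (-0.05 to 0.08) and TNNC2 between the fractions with RA (-0.14 to 0.53). In GFP-positive cells, 2 troponin genes were past 2-fold with RA under a filter of 1 CPM and without a filter, TNNC2 being added by the filter's own construction. The number of genes past 2-fold ranged from 2 to 3 for RA in GFP-negative cells, from 4 to 6 between the fractions in CTR and from 5 to 6 with RA. The TNNI1 to TNNI3 proportion in RA GFP-positive, CTR GFP-positive, RA GFP-negative and CTR GFP-negative cells was 43.5, 72.9, 4.41 and 7.33 for reads without length, and 7.07, 11.8, 0.716 and 1.19 with the longest transcripts. It was 6.01, 10.1, 0.609 and 1.01 with MANE Select transcripts and 2.59, 4.35, 0.263 and 0.437 without their shared bases, both lengths chosen after seeing the data; the alternative's own construction sets these values. After thinning, the proportion with RA was 0.558 of CTR among GFP-positive and 0.551 among GFP-negative cells. The CTR GFP-negative library, with 4371101 reads, limits TNNC2, TNNI2, TNNT3 and TNNI3 there. No paired analysis was possible because no group has a second library to pair by replicate number; an additive fit of treatment and fraction was not made.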

Other observations

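For each troponin gene with at least 10 CPM in a library, the genes with the most similar pattern over the 4 libraries were listed, by the Euclidean distance between log2(CPM + 1) values centred on each gene's mean, among 12406 genes. With 4 points per gene this describes these libraries only. Nearest to TNNT2 were LDB3 (distance 0.32), LMOD2, TRIM55, ACTN2 and SMYD1, and TNNI1 was 10th (0.55). Nearest to TNNI1 were SLC30A3 (0.22), AHNAK2, TRIM55, GJA3 and MB, the gene of myoglobin. MB was 65.5 and 105 CPM in RA and CTR GFP-positive cells and 1.4 and 3.62 CPM in RA and CTR GFP-negative cells. Among the genes nearest to TNNC1 were CRMA (0.19), CMYA5, PGM5 and PPP1R1B.

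Nearest to TNNI3 were VDAC3 (0.04), a mitochondrial porin, PPP1R3F, SLC22A23, KLF12 and MYO15B, and VDAC3 was 180, 164, 86.4 and 83.7 CPM in RA GFP-positive, CTR GFP-positive, RA GFP-negative and CTR GFP-negative cells. Nearest to TNNT1 were MFAP5 (0.13), a microfibril gene, CLDN1, ANXA8L2, ADAM33 and TLL1, and MFAP5 was 1.94, 2.23, 20.4 and 44.9 CPM in that order. Nearest to TNNT3 were NDNF (0.15), MIR3648, KCTD12, C18orf54 and LARGE2. Between the linked genes, LAD1 was 6.02, 6.6, 19.1 and 7.45 CPM and so did not follow the order of TNNT2 and TNNI1 on either side of it. LSP1, beside TNNI2 and TNNT3, was between 0.384 and 2.1 CPM. The proportion of TNNT2 to TNNI1 reads was 3.64, 2.54, 2.19 and 2.55 in the same order of libraries.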
